A study of Mus musculus with 21 samples.

Results

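Genes of the distal nephron and collecting duct were followed in glomeruli cut out of frozen mouse kidney sections by laser microdissection. The list named 32 genes, all of which were matched by Ensembl identifier among the 35598 genes of the deposited tables, and they were placed by known site of expression in 5 lists. Of these, 9 belong to the thick ascending limb, 8 to the distal convoluted and connecting tubule, 7 to the principal cells of the collecting duct, 4 to its intercalated cells, and 4 are shared along the tubule or with other cells. Each of the 21 libraries came from a different female mouse, 3 months old, and all mice carried floxed alleles of Epac1. In cKO mice a Cre recombinase under a podocyte promoter deletes Epac1 (gene symbol Rapgef3), a cyclic AMP-activated exchange factor for Rap GTPases. Their littermates without Cre are called flox. Nephritis was induced by decomplemented nephrotoxic serum given intravenously on 2 consecutive days, and controls received PBS. The groups held 3 PBS, 4 day 4 and 4 day 11 cKO mice, and 3 PBS, 3 day 4 and 4 day 11 flox mice. The study asks what podocyte Epac1 does during glomerulonephritis. The Cre acts in podocytes, so none of the tubule cells whose RNA is described here is labelled as deleted for Epac1.

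The distal nephron adjusts the salt, water and acid content of urine. The thick ascending limb reabsorbs salt without water and secretes uromodulin, and the convoluted and connecting tubules take up salt, calcium and magnesium. Principal cells of the collecting duct take up sodium and water under aldosterone and vasopressin, and intercalated cells move acid and base. At the macula densa the thick limb of each nephron touches its own glomerulus, and proximal and distal tubule profiles lie close around glomeruli in the cortex, so cut glomeruli can hold RNA of tubule cells. Podocytes, endothelium and mesangium are not known to make most of the proteins in the 4 segment lists, whereas Atp1b1, Fxyd2, Sgk1 and Wnk1 are expressed in other cells as well. In these bulk libraries, fewer cells of a type and less RNA per cell cannot be told apart.

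The depth of a library lay between 4550550 and 24295712 reads (median 19470098), and between 7871 and 13006 genes had reads. The library with the fewest reads was replicate 3 of the cKO day 11 mice, and that with the fewest genes was replicate 3 of the cKO day 4 mice. Rapgef3 ranged from 64.4 to 160 CPM in cKO PBS, 63.4 to 146 CPM in cKO day 4 and 139 to 199.5 CPM in cKO day 11 libraries, against 201 to 310.2 CPM in flox PBS, 124 to 231 CPM in flox day 4 and 131 to 347 CPM in flox day 11 libraries. The difference, cKO minus flox over the 3 stages, was −0.68 ± 0.25 on the log2 scale (SE) and did not pass the test (adjusted p = 0.55), and tags at the 3′ end do not check a deletion elsewhere in the gene. CPM values are reads scaled to a common library size after TMM adjustment. Each transcript gives a tag at its end, so these levels were not divided by length. Where genes are ordered by level or summed, the order or sum is that of tag CPM, and differences between groups are within a gene or list.

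The RefSeq promoter sequences of the member with the highest mean level in each segment list are shown because these 4 genes carry the description of their segment. The windows are the 250 bases upstream of the annotated start in build GRCm38.p6, 5′ to 3′ on the strand of the gene, and capitals mark the letters GTTAAT (core of the HNF1 site), AAGGTCA (oestrogen-related receptor site) or TATAAA, searched on both strands. Umod lies on the minus strand (chr7:119479263-119479512), and Klk1 (chr7:44225110-44225359), Aqp2 (chr15:99578806-99579055) and Atp6v1g3 (chr1:138273488-138273737) on the plus strand.
Umod: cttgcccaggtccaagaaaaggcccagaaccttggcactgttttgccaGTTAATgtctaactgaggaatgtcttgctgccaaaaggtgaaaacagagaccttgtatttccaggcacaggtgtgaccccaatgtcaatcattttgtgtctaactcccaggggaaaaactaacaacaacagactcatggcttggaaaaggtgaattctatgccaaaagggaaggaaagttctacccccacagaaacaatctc
Klk1: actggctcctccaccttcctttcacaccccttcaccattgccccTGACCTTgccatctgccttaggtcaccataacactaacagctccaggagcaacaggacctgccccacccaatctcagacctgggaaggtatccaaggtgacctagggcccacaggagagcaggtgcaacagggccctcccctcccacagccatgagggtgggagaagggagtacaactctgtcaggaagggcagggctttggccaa
Aqp2: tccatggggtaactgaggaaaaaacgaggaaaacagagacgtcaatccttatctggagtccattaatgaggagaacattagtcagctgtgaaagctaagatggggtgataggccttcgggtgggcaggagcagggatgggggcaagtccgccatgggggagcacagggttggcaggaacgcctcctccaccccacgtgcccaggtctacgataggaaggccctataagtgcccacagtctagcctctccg
Atp6v1g3: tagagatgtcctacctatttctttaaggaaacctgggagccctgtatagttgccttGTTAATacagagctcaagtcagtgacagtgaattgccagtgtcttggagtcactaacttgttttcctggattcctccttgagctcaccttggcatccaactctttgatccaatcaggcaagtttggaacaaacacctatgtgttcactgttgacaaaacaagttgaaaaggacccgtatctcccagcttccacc

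The Umod and Atp6v1g3 windows hold GTTAAT, starting 202 and 194 bases upstream of the gene start, the Klk1 window holds AAGGTCA at 206 bases, and the Aqp2 window holds none of the 3 motifs. Windows were found for 27 members, 36 windows in all, since some genes have several starts. GTTAAT stood in 3 of these (8.33%), in Umod, Atp6v1g3 and Cldn10, against 6.43% of all 32851 windows of the same length. AAGGTCA stood in 4 windows (11.1%), of Wfdc15b, Klk1 and Sgk1, against 4.08% of all windows, and TATAAA in 6 (16.7%) against 12.4%. No motif matches overlapped one another. A match is a description of letters and not of binding.

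RNA of every distal segment was present in the glomerular libraries, and its amount varied strongly from mouse to mouse. Reads for 10 members were found in all 21 libraries, and the remaining 22 had no read in at least 1 library. Of the members, 17 had no read in one library and more than 20 CPM in another, and for 15 of them both occurred within 1 group. The members together took 5306 ± 612 CPM in cKO PBS, 6494 ± 1992 CPM in cKO day 4 and 2786 ± 1011 CPM in cKO day 11 libraries (SD, n = 3, 4 and 4). They took 6363 ± 1614 CPM in flox PBS, 6559.7 ± 960.01 CPM in flox day 4 and 4420.1 ± 1175 CPM in flox day 11 libraries (n = 3, 3 and 4). The lowest mean sum was that of the cKO day 11 mice, at 1800.1 to 3852 CPM, below the 4352 to 9164 CPM of cKO day 4 without overlap, while flox day 11 libraries spanned 3392 to 5602 CPM.

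**Figure D1:**
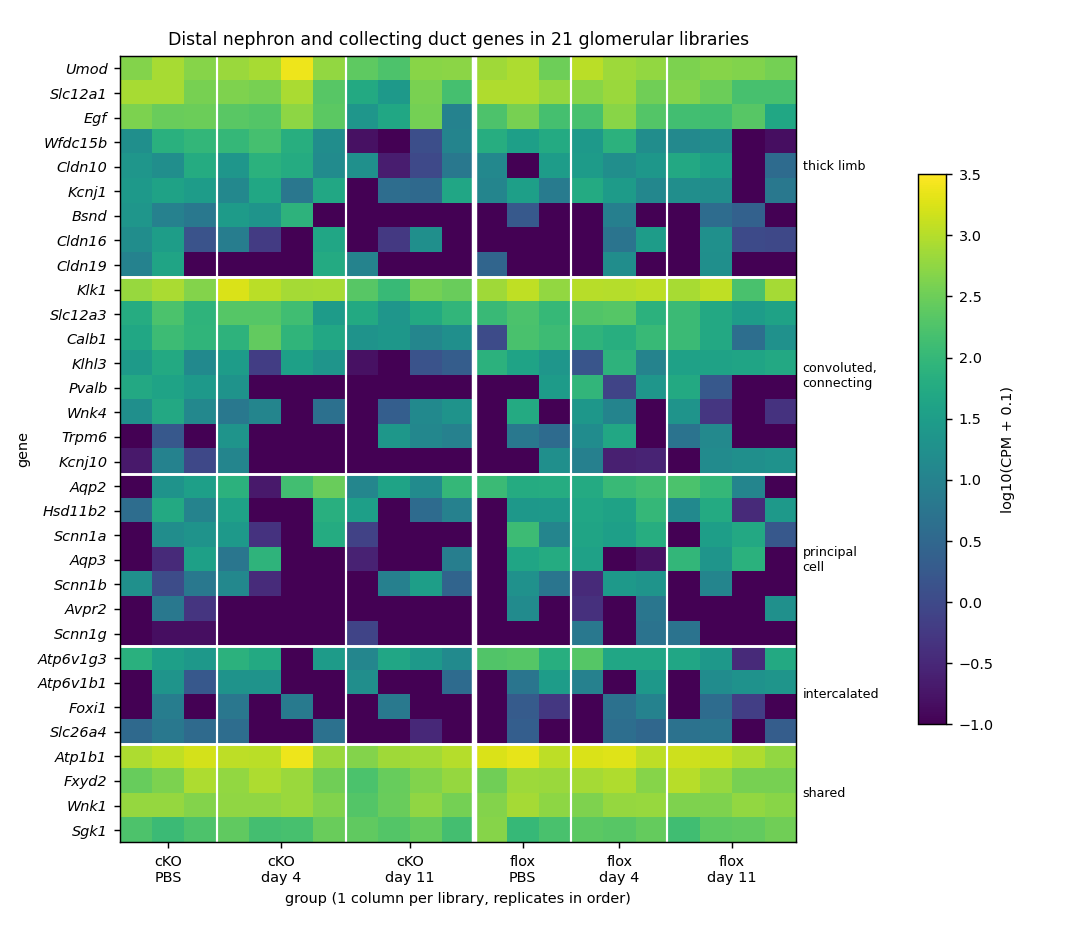
Level of each of the 32 members (rows, by segment list) in each of the 21 libraries (columns, cKO left of flox and PBS, day 4, day 11 within each genotype), as log10 of CPM plus 0.1. The 10 members with reads in every library form complete rows, while the principal and intercalated cell rows are broken by libraries at 0, and Bsnd, Pvalb and Kcnj10 are at 0 in all 4 cKO day 11 libraries.

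Thick ascending limb genes were led by Umod (ENSMUSG00000030963.6), which encodes uromodulin, the main protein of normal urine. It stood at 457, 827 and 479.7 CPM in cKO PBS, 658, 809, 2476 and 590.4 CPM in cKO day 4 and 246, 173, 509 and 512 CPM in cKO day 11 libraries. Flox libraries had 714, 871 and 317 CPM after PBS, 1065, 681 and 593 CPM at day 4 and 409.7, 486, 437 and 359.7 CPM at day 11. In both genotypes every day 11 library lay below every day 4 library, while day 11 and PBS libraries overlapped, and 1 cKO day 4 library, replicate 3, stood far above all others. The day 11 minus day 4 difference was −1.65 ± 0.42 on the log2 scale (SE) in cKO (adjusted p = 0.456) and −0.88 ± 0.44 in flox (adjusted p = 0.963), neither of which passed the threshold of 0.05 used for every adjusted p here. Without cKO day 4 replicate 3 the cKO difference was −0.93, and without flox day 4 replicate 1 the flox difference was −0.58.

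Slc12a1 (ENSMUSG00000027202.12) encodes NKCC2, the apical sodium, potassium and chloride cotransporter that loop diuretics block. It had 819.8, 817 and 378 CPM in cKO PBS, 424, 384, 852 and 213 CPM in cKO day 4 and 53.7, 26.5, 391 and 147 CPM in cKO day 11 mice. The flox values were 936, 921 and 624 CPM after PBS, 509, 662 and 334 CPM at day 4 and 455, 312, 157 and 154 CPM at day 11. All 4 flox day 11 libraries lay below all 3 flox PBS libraries, and 3 of 4 cKO day 11 libraries lay below every cKO PBS library, the exception being replicate 3, the library with the fewest reads. Against PBS, the day 11 difference was −2.12 ± 0.66 in cKO (adjusted p = 0.805) and −1.62 ± 0.66 in flox (adjusted p = 0.579), and averaged over the genotypes it was −1.87 ± 0.47 (unadjusted p = 0.000756, adjusted p = 0.191). Without cKO day 11 replicate 3, the exception named above, the cKO difference was −3.15 (adjusted p = 0.0223) and the average −2.38 (adjusted p = 0.00319), both past the threshold. With each library left out in turn, the cKO difference ran from −3.15 to −1.77 and the average from −2.38 to −1.69.

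Egf encodes the precursor of epidermal growth factor, made by the thick limb and the convoluted tubule. Its levels were 404, 293 and 308 CPM in cKO PBS, 227, 197.2, 551 and 236 CPM in cKO day 4 and 23, 48.2, 358 and 9.8 CPM in cKO day 11 libraries. In flox they were 172, 376 and 151 CPM after PBS, 158, 508 and 195 CPM at day 4 and 139, 129.5, 210.2 and 47.7 CPM at day 11. Of the cKO day 11 libraries, 3 had less Egf than any other cKO library, and replicate 3 was again the exception. The cKO day 11 minus PBS difference was −1.61 ± 0.83 (adjusted p = 0.811), and without that library it was −3.63 (adjusted p = 0.00474), past the threshold. With each library left out in turn this difference ran from −3.63 to −1.23.

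Wfdc15b, a WAP domain gene, had 0.0561, 0, 1.12 and 10.6 CPM in cKO day 11 libraries, against 17.2, 72.2 and 94.8 CPM in cKO PBS and 97.8, 150.02, 67.1 and 16.2 CPM in cKO day 4 libraries. Flox mice had 13.1, 15.7, 0 and 0.0447 CPM at day 11, against 63.8, 34.1 and 55.7 CPM after PBS and 26.9, 78.1 and 15.8 CPM at day 4. In both genotypes the day 11 libraries lay below all others, with differences from PBS of −4.38 ± 1.72 in cKO (adjusted p = 0.805) and −2.83 ± 1.61 in flox (adjusted p = 0.619). The remaining thick limb members were less regularly detected. The potassium channel Kcnj1 (ROMK), through which potassium returns to the lumen, had reads in 19 libraries at up to 56.5 CPM. Cldn10, Cldn16 and Cldn19, which encode claudins of tight junctions, had reads in 19, 13 and 7 libraries at up to 75, 46 and 55.4 CPM.

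Bsnd, which encodes barttin, the accessory subunit of the ClC-K chloride channels, had no read in any cKO day 11 library. It stood at 23.2, 9.39 and 6.36 CPM in cKO PBS and 29, 21, 82.6 and 0 CPM in cKO day 4 libraries, so that with 3 counts over the cKO day 11 group as the floor it was at least 194-fold lower than in cKO PBS (adjusted p = 0.805). Flox libraries had 0, 1.71 and 0 CPM after PBS, 0, 8.52 and 0 CPM at day 4 and 0, 3.77, 2.42 and 0 CPM at day 11. Flox mice thus had libraries at 0 at every stage as well. Such a floor covers counting error only.

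In the convoluted and connecting tubule list, Klk1 (ENSMUSG00000063903.5), tissue kallikrein of the connecting tubule, had the highest mean level. It stood at 629, 841 and 455 CPM in cKO PBS, 1754, 1101, 771 and 815 CPM in cKO day 4 and 218, 109, 358 and 294 CPM in cKO day 11 libraries. Flox libraries had 734, 1155 and 587 CPM after PBS, 1026, 986 and 1104 CPM at day 4 and 809, 1155, 162 and 784 CPM at day 11. Every cKO day 11 library lay below every cKO PBS and every cKO day 4 library, and only 1 flox day 11 library, replicate 3 at 162 CPM, was within the cKO day 11 range. The cKO day 11 mean was 245 ± 107 CPM, against 1110.1 ± 453 CPM at cKO day 4, 642 ± 193 CPM in cKO PBS and 727 ± 413 CPM in flox day 11 (SD, n = 4, 4, 3 and 4).

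None of the Klk1 differences passed the test over all genes. For cKO day 11 it was −2.18 ± 0.44 against cKO day 4 (unadjusted p = 4.77e-05, adjusted p = 0.12), −1.39 ± 0.45 against cKO PBS (adjusted p = 0.805) and −1.57 ± 0.43 against flox day 11 (unadjusted p = 0.00126, adjusted p = 0.839). Without flox day 11 replicate 3 the first and the last were −2.21 (adjusted p = 0.000698) and −1.94 (adjusted p = 0.015), past the threshold. That library is in neither group of the first comparison and enters it only through the shared model. In the last comparison it was the flox library with the least Klk1. With each library left out in turn, the first ran from −2.42 to −1.87 and the last from −1.94 to −1.26. In flox, day 11 minus PBS was −0.18 ± 0.45 (adjusted p = 1). Mouse Klk1 has near-identical neighbours in the Klk1b family, and the handling of reads shared between them is not given in the sources used here, so its counts are uncertain in that respect.

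Klhl3, the adaptor of a ubiquitin ligase that marks WNK kinases for degradation, had 0.0561, 0, 1.34 and 1.98 CPM in cKO day 11 libraries, against 36.8, 39.1, 42.9 and 51.1 CPM in flox day 11 libraries. The cKO values before that were 28.5, 53.1 and 13.7 CPM after PBS and 30.8, 0.57, 36.7 and 22.2 CPM at day 4, and the flox values 77.4, 41.2 and 22.9 CPM after PBS and 1.44, 80.9 and 10.2 CPM at day 4. At day 11 the genotypes did not overlap, and it was the 1 member of 32 of which this held, against 1.29% of all 13898 genes tested. The difference, cKO minus flox at day 11, was −5.67 ± 1.77 (adjusted p = 0.839), that of cKO day 11 minus PBS −5.26 ± 1.77 (adjusted p = 0.805), and that of flox day 11 minus PBS −0.15 ± 1.55 (adjusted p = 1). The test of the difference between the genotypes in day 11 minus PBS gave −5.11 ± 2.34 (adjusted p = 0.683), which did not pass the threshold.

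Slc12a3, the thiazide-sensitive sodium and chloride cotransporter NCC, was detected in every library. Its levels were 61, 169.1 and 85.1 CPM in cKO PBS, 207, 206, 129.99 and 29.8 CPM in cKO day 4 and 55, 23.1, 53.7 and 91.5 CPM in cKO day 11 libraries, and 113, 167 and 102 CPM in flox PBS, 193, 203 and 76.9 CPM in flox day 4 and 118, 52, 31.2 and 39.2 CPM in flox day 11 libraries. The groups overlapped, and day 11 minus PBS was −0.91 ± 0.63 in cKO (adjusted p = 1) and −1.08 ± 0.63 in flox (adjusted p = 0.634). Calb1, the calcium buffer calbindin, was also present throughout, with 20.3, 23.8, 11.6 and 17.6 CPM in cKO day 11 libraries, against 47.7, 123 and 86.5 CPM in cKO PBS and 117, 50.9, 4.08 and 18.6 CPM in flox day 11 libraries. The cKO day 11 libraries lay below those of cKO PBS without overlap.

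Pvalb, parvalbumin of the early convoluted tubule, had no read in any cKO day 11 library and in 3 of 4 cKO day 4 libraries, against 50.9, 39.9 and 27.1 CPM in cKO PBS libraries. At the floor it was at least 599-fold lower in cKO day 11 than in cKO PBS, a difference that did not pass the test (adjusted p = 0.805). It stood at 0, 0 and 29.3 CPM in flox PBS, 93.2, 0.739 and 23.1 CPM at flox day 4 and 54.8, 1.61, 0 and 0 CPM at flox day 11, so flox mice also had libraries at 0 at each of PBS and day 11. The basolateral potassium channel Kcnj10 was at 0 in all 4 cKO day 11 libraries and reached 19.6 CPM in a flox day 11 library. Wnk4, the kinase that controls NCC, and Trpm6, the apical magnesium channel, had reads in 15 and 11 libraries, at up to 57.1 and 48.9 CPM.

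**Figure D2:**
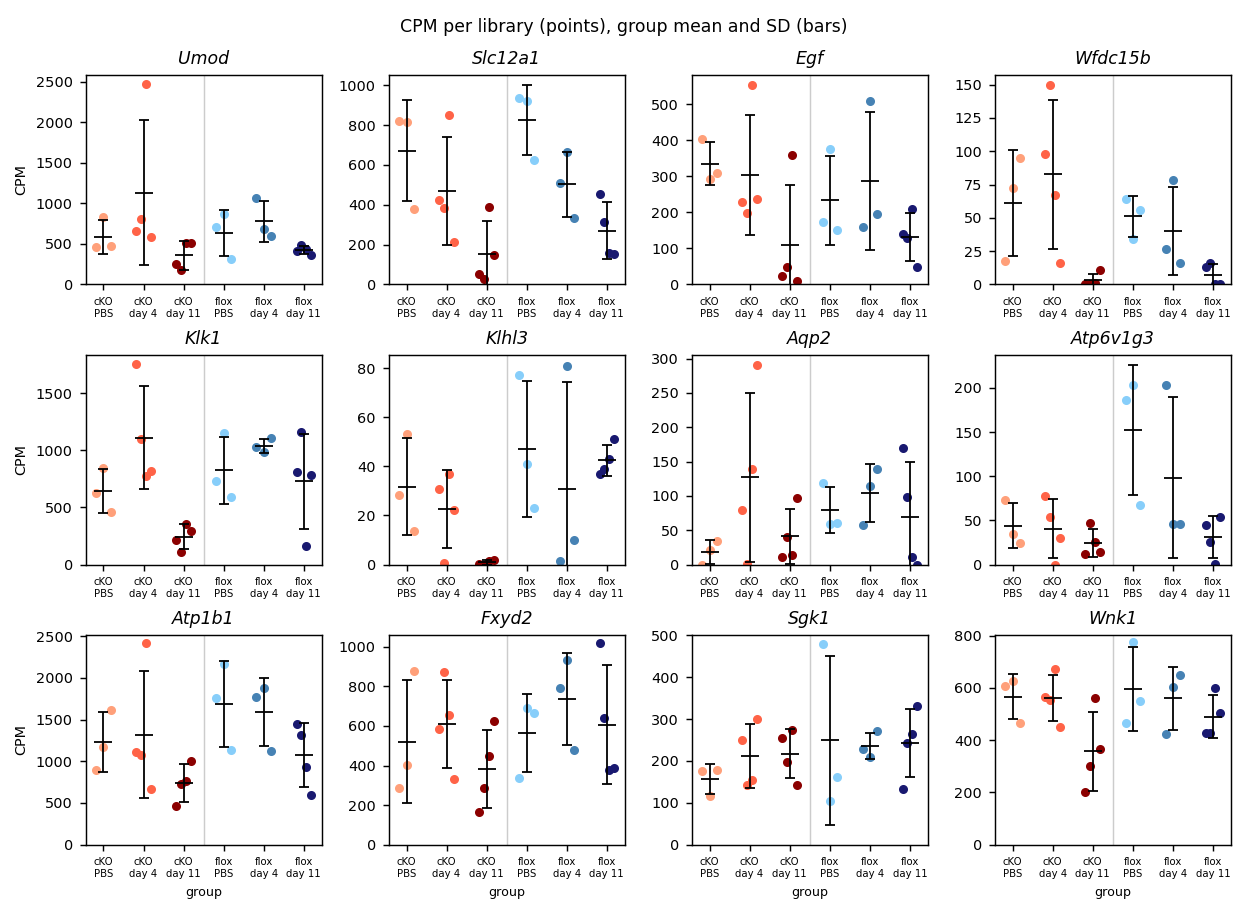
CPM of 12 members in each library (points), with the mean and SD of each group (bars), cKO left of flox and PBS, day 4, day 11 within each genotype. Klk1 and Slc12a1 have their lowest group means in cKO day 11 mice, Klhl3 is near 0 there and at 36.8 to 51.1 CPM in flox day 11 mice, and Umod has 1 cKO day 4 library at 2476 CPM.

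The principal cell list was led by Aqp2 (ENSMUSG00000023013.5), the vasopressin-regulated water channel. It had 0, 20.8 and 34.1 CPM in cKO PBS, 79, 0.104, 139 and 291 CPM in cKO day 4 and 11.6, 40.4, 14.6 and 97.3 CPM in cKO day 11 libraries, and 119, 59.5 and 60.6 CPM in flox PBS, 57.3, 114 and 139.7 CPM in flox day 4 and 170.1, 98, 10.9 and 0 CPM in flox day 11 libraries. The means of cKO day 4 (127 ± 123 CPM), cKO day 11 (41 ± 39.7 CPM) and flox day 11 (69.8 ± 80 CPM) were about as large as their SDs (n = 4 each). Of the groups compared only cKO PBS and flox PBS did not overlap, the cKO libraries being lower. Day 11 minus PBS was 1.16 ± 1.82 in cKO and −0.19 ± 1.75 in flox (both adjusted p = 1).

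The epithelial sodium channel of the principal cell has 3 subunits in the list. Scnn1a had 0.673, 0, 0 and 0 CPM in cKO day 11 libraries, against 0, 16 and 20.3 CPM in cKO PBS, 25.5, 0.362, 0 and 59.3 CPM in cKO day 4 and 0, 33, 51.8 and 1.61 CPM in flox day 11 libraries. The difference was −5.98 ± 2.63 from cKO PBS (adjusted p = 0.805) and −6.81 ± 2.68 from flox day 11 (adjusted p = 0.839), with libraries at 0 on each side. Only replicate 1 of the cKO day 11 libraries had reads. Without it the fitted values were −10.76 and −11.58, sizes that depend on the prior count because that group was then at 0. Scnn1b had reads in 14 libraries and at most 32.7 CPM, and there a cKO day 11 library was the highest of all. Scnn1g had reads in 6 libraries at up to 6.2 CPM. Aqp3, the basolateral water channel, Hsd11b2, the enzyme that shields the mineralocorticoid receptor from glucocorticoids, and Avpr2, the vasopressin receptor, had reads in 13, 17 and 6 libraries, at up to 94.3, 100.3 and 18 CPM. Of the 7 principal cell members, none had reads in every library.

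Among intercalated cell members the highest mean CPM was that of Atp6v1g3 (ENSMUSG00000026394.5), a subunit of the proton pump. Levels of Atp6v1g3 were 73.1, 34.3 and 24.6 CPM in cKO PBS, 77.6, 54.3, 0 and 29.5 CPM in cKO day 4 and 11.5, 46.8, 26 and 14.2 CPM in cKO day 11 libraries, and 186, 203 and 67.3 CPM in flox PBS, 203, 46.2 and 45.8 CPM in flox day 4 and 45.2, 25, 0.25 and 53.4 CPM in flox day 11 libraries. The flox day 11 libraries lay below all flox PBS libraries, with a difference of −2.30 ± 1.22 (adjusted p = 0.579), whereas cKO day 11 and cKO PBS overlapped (−0.84 ± 1.19, adjusted p = 1). Another pump subunit, Atp6v1b1, had reads in 13 libraries at up to 31.1 CPM. Slc26a4 (pendrin), the chloride and bicarbonate exchanger of base-secreting cells, and Foxi1, the transcription factor of the lineage, had reads in 12 and 10 libraries at no more than 6.31 and 9.98 CPM. The defining factor of the lineage thus had no read in 11 libraries.

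The 4 members shared along the tubule or with other cells had reads in every library. Atp1b1 (ENSMUSG00000026576.12), the beta subunit of the sodium pump, had 898, 1169 and 1613 CPM in cKO PBS, 1109, 1073, 2419 and 670.03 CPM in cKO day 4 and 459, 733, 762 and 1004 CPM in cKO day 11 libraries. In flox it had 1763, 2162 and 1141 CPM after PBS, 1769, 1876 and 1128 CPM at day 4 and 1444, 1319, 926 and 599 CPM at day 11. The groups overlapped in part, and day 11 minus PBS was −0.73 ± 0.35 in cKO (adjusted p = 0.805) and −0.66 ± 0.35 in flox (adjusted p = 0.589). Fxyd2, the gamma subunit of that pump, had 285, 403 and 876 CPM in cKO PBS, 582, 871, 655 and 332 CPM in cKO day 4 and 167, 288, 447 and 625 CPM in cKO day 11 libraries. Its flox libraries had 338, 690.2 and 663 CPM after PBS, 794, 934 and 478 CPM at day 4 and 1018, 642, 378 and 385 CPM at day 11, and the stages overlapped in each genotype.

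Wnk1, a kinase upstream of NCC and NKCC2, had 605, 626 and 466 CPM in cKO PBS, 566, 555, 671 and 451 CPM in cKO day 4 and 201, 301, 560.2 and 365 CPM in cKO day 11 libraries, and 464, 774 and 549.7 CPM in flox PBS, 422, 605 and 651 CPM in flox day 4 and 427, 425, 600.5 and 505 CPM in flox day 11 libraries. The cKO day 11 minus PBS difference was −0.66 ± 0.29 (adjusted p = 0.805). Sgk1, the aldosterone-induced kinase that raises sodium channel activity, was the one shared member with a positive difference there. It had 177.004, 117 and 178 CPM in cKO PBS, 249, 143, 154 and 301 CPM in cKO day 4 and 254, 198, 274 and 143 CPM in cKO day 11 libraries, and 480.05, 105 and 162 CPM in flox PBS, 229, 210.1 and 271 CPM in flox day 4 and 133, 243, 265 and 331 CPM in flox day 11 libraries. Those groups overlapped, and the cKO day 11 minus PBS difference was 0.47 ± 0.43 (adjusted p = 1).

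Set against PBS, established nephritis at day 11 in cKO mice went with lower values of most distal genes. The libraries of these groups also differed in depth, with 4550550 to 17200905 reads at cKO day 11 and 19889645 to 20974784 in cKO PBS. A ribosomal RNA gene took 22.2 to 39.5% of reads at cKO day 11 and 17.3 to 25.4% in cKO PBS. Each cKO day 11 library had reads for 19 to 22 members, and each cKO PBS library for 24 to 32. The part of depth in the lower values was not tested. All 32 members passed the filter on low counts, and 27 of them (84.4%) had a lower fitted level, with a median log2 fold change of −1.48, while 51.4% of all genes were lower and their median was −0.032. Setting members without reads in a group to the floor left this and the other medians over all members as given, but for −1.18 in place of −1.19 for the genotype difference in the day 11 response. The distal genes were not alone in this direction. Of 13 podocyte markers, 10 were lower at cKO day 11 than in cKO PBS (median −0.71), 1 of them, Thsd7a, past the threshold of edgeR. Of 8 markers of tubule epithelium in general, 4 were lower (median 0.019). The part of either list in the distal values was not tested. In flox 10 podocyte markers (median −0.25) and 5 general epithelial markers (median −0.20) were lower at day 11 than after PBS. All 9 thick limb members were lower at cKO day 11 (median −2.12), as were 7 of 8 convoluted and connecting tubule members (−1.90), all 4 intercalated cell members (−0.76), 4 of 7 principal cell members (−0.93) and 3 of 4 shared members (−0.56). Bsnd, Calb1, Kcnj10, Klhl3, Klk1, Pvalb, Slc26a4 and Wfdc15b, 8 members or 25%, had all cKO day 11 libraries below all cKO PBS libraries, which held for 4.03% of all genes.

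By edgeR's quasi-likelihood test 0 members passed, against 0.0504% of all genes, 11 members were lower and 0 higher at an unadjusted p under 0.05 (3.42% and 2.59% of all genes), and DESeq2 called 5 (Bsnd, Kcnj10, Klhl3, Pvalb and Slc12a1), 3 of which had no read in 1 of the groups. By DESeq2, 4.91% of all genes were called in this comparison. Without the cKO libraries of fewest reads and of fewest genes, a choice made after the data were seen, 2 members passed, Slc12a1 at −3.15 (adjusted p = 0.00472) and Egf at −3.63 (adjusted p = 0.00338), and 28 of 32 were lower. The share of all genes called in that fit is not given here, so these 2 calls have no background beside them. Without cKO PBS replicate 2 the median was −0.96, with 25 lower.

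In flox mice, Slc12a1, Wfdc15b and Atp6v1g3 were lower in every day 11 library than in every PBS library. These 3 members are 9.38% of the list, against 2.53% of all genes. A lower fitted level was found for 18 of 32 members, with a median of −0.14, beside 46.8% of all genes and a median of 0.095, and this median was 0.075 when flox PBS replicate 2 was left out and 0.099 when flox day 11 replicate 3 was. Thick limb members were lower in 5 of 9 (median −0.58), convoluted and connecting tubule members in 5 of 8 (−0.17), principal cell members in 4 of 7 (−0.14), intercalated cell members in 1 of 4 (0.35) and shared members in 3 of 4 (−0.16). The edgeR test called 0 members and 0% of all genes. At an unadjusted p under 0.05, 1 member was lower and 1 higher (2.35% and 5.9% of all genes), and DESeq2 called 2, Cldn16 and Scnn1g, both without reads in flox PBS, and 8.71% of all genes. Cldn16 was at least 116-fold higher at the floor (adjusted p = 0.579), mostly from 1 library at 18.3 CPM, and Scnn1g at least 19.8-fold higher (adjusted p = 0.579), from 1 library at 5.13 CPM.

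Averaged over both genotypes, day 11 minus PBS gave a median of −0.91 with 27 of 32 members lower, beside 0.068 over all genes, and −0.57 with 22 lower without flox PBS replicate 2. The edgeR test called 0 members and 0.122% of all genes, 12 members were lower and 1 higher at an unadjusted p under 0.05 (2.94% and 6.17% of all genes), the higher one being Scnn1g, without reads in flox PBS. DESeq2 called 7, namely Bsnd, Kcnj10, Klhl3, Pvalb, Scnn1g, Slc12a1 and Wfdc15b, and 8.93% of all genes. Slc12a1 had the difference given above, Wfdc15b −3.60 ± 1.18 (adjusted p = 0.339) and Atp1b1 −0.69 ± 0.25 (adjusted p = 0.342). Without the libraries of fewest reads and fewest genes, 2 members passed, Slc12a1 at −2.38 (adjusted p = 0.000326) and Egf at −2.23 (adjusted p = 0.00231). For that fit, too, the share of all genes called is not given here.

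**Figure D3:**
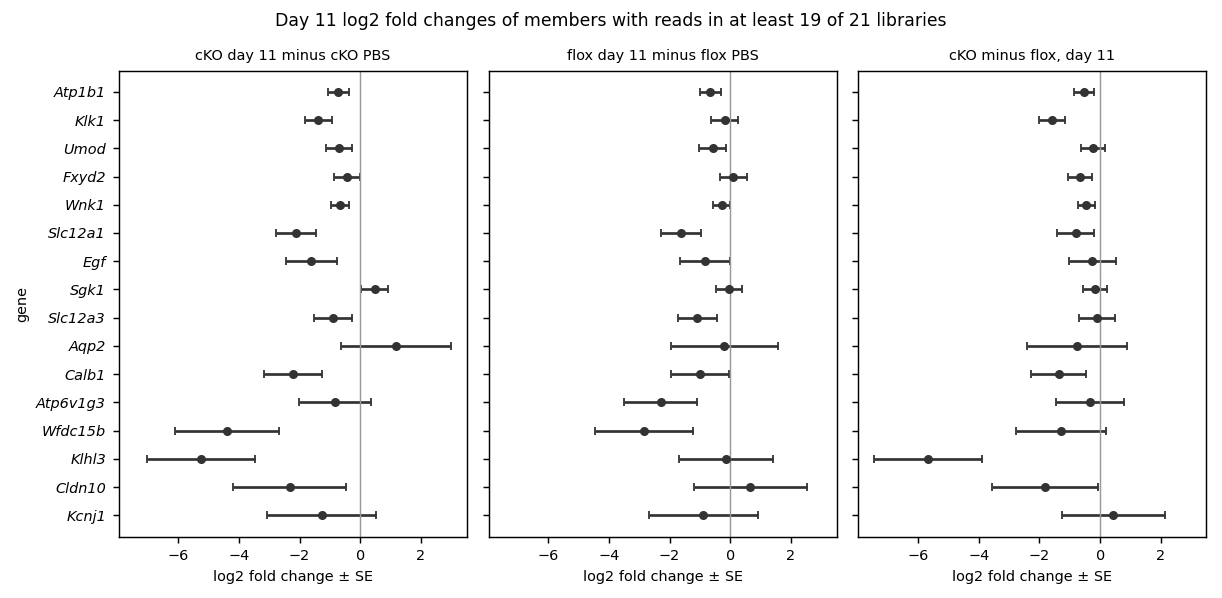
Log2 fold change with its standard error (edgeR) of the 16 members with reads in at least 19 of 21 libraries, for cKO day 11 minus cKO PBS, flox day 11 minus flox PBS, and cKO minus flox at day 11. Slc12a1 and Wfdc15b are negative in all 3 panels, Klk1 and Klhl3 are negative in cKO and in the genotype difference and close to 0 in flox, and no member passed an adjusted p of 0.05.

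Compared with flox at day 11, cKO glomeruli had lower fitted levels of 27 members, with a median of −0.79 beside −0.023 over all genes, and Klk1, Klhl3 and Pvalb had the smallest unadjusted p. Pvalb was at least 186-fold lower at the floor (adjusted p = 0.839), with reads in only 2 of the 4 flox day 11 libraries. Lower values were found for 8 of 9 thick limb members (median −0.72), 6 of 8 convoluted and connecting tubule members (−1.47), 6 of 7 principal cell members (−2.73), 3 of 4 intercalated cell members (−0.90) and 4 of 4 shared members (−0.50). The edgeR test called 0 members and 0% of all genes, 7 members were lower and 0 higher at an unadjusted p under 0.05 (3.14% and 2.73% of all genes), and DESeq2 called 6, of which Klhl3, Klk1 and Scnn1a had reads in both groups, and 3.8% of all genes. For several leading genes the error exceeded the difference, as for Umod (−0.23 ± 0.41), Egf (−0.26 ± 0.77), Aqp2 (−0.77 ± 1.64) and Atp6v1g3 (−0.33 ± 1.11), while Slc12a1 was at −0.80 ± 0.61, and at −1.83 without cKO day 11 replicate 3 and −0.43 without flox day 11 replicate 1. Without flox day 11 replicate 1 the median was −0.47, with 24 lower.

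The direct test of whether day 11 nephritis changed the members differently in the genotypes called 0 members by edgeR, with 4 members lower and 0 higher at an unadjusted p under 0.05 (5.1% and 1.83% of all genes), while DESeq2 called Bsnd, Kcnj10 and Pvalb and 7.29% of all genes. The members with the smallest unadjusted p were Pvalb, Bsnd and Cldn16, each without reads in at least 1 of the 4 groups (adjusted p = 0.621, 0.634 and 0.66). The median of this difference was −1.19 over the members and −0.20 over all genes, and it was −0.64 when either flox PBS replicate 1 or flox day 11 replicate 2 was left out. Klk1 gave −1.21 ± 0.64 (adjusted p = 0.76) and Slc12a1 −0.50 ± 0.93 (adjusted p = 1), which ran from −1.53 without cKO day 11 replicate 3 to −0.13 without flox day 11 replicate 1. The cKO and flox day 11 groups enter several of these comparisons, which are therefore not independent of one another.

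Day 11 libraries also had lower values of most members than day 4 libraries of the same genotype. In cKO mice, Calb1, Klk1, Umod and Wfdc15b were lower in every day 11 than in every day 4 library, 12.5% of the members against 1.31% of all genes, and 26 members had a lower fitted level (median −1.54, 0.063 over all genes). The edgeR test called 0 members and 0% of all genes, 13 members were lower and 0 higher at an unadjusted p under 0.05 (3.78% and 6.55% of all genes), and DESeq2 called 10, 4 of them without reads in 1 group, and 6.99% of all genes. Among the smallest p-values were Klk1, given above, and Bsnd, at least 427-fold lower at the floor (adjusted p = 0.465). In flox, 25 members were lower (median −0.88, beside 0 over all genes), Umod and Wfdc15b without overlap (6.25% of members, 2.94% of all genes). There edgeR called 0 members and 0% of all genes, 1 member was lower and 0 higher at an unadjusted p under 0.05 (2.5% and 2.44%), and DESeq2 called 0 members and 4.35% of all genes. That member was Slc12a3, at −1.39 ± 0.63 (adjusted p = 0.963).

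In early nephritis the members showed no common direction within either genotype. At day 4 against PBS the median over the members was 0.17 in cKO and 0.30 in flox, with 15 and 13 of 32 members lower, beside all-gene medians of −0.094 and 0.079. With single libraries left out these medians ran from −0.11 to 0.32 in cKO and from 0.12 to 0.63 in flox. In cKO, edgeR called 0 members and 0% of all genes, 1 member was lower and 1 higher at an unadjusted p under 0.05 (5.95% and 2.21% of all genes), and DESeq2 called 1, Scnn1g, and 6.08% of all genes. The 2 under an unadjusted p of 0.05 were Avpr2, at least 56.6-fold lower at the floor (adjusted p = 0.599), mostly from 1 cKO PBS library at 6.31 CPM, and Umod at 0.95 ± 0.45 (adjusted p = 0.604), which without cKO day 4 replicate 3 was at 0.22. Klk1 was at 0.79 ± 0.46 (adjusted p = 0.736). Pvalb and Wnk4 were lower in every cKO day 4 library than in every cKO PBS library, 6.25% of members against 4.76% of all genes. In flox, edgeR again called 0 members and 0% of all genes, 0 members were lower and 2 higher (2.38% and 5.55% of all genes), and DESeq2 called Cldn16 and Scnn1g, both at 0 in flox PBS, and 8.63% of all genes. At the floor Cldn16 was at least 183-fold higher and Scnn1g at least 70.7-fold higher (both adjusted p = 0.592), while Slc12a1 was at −0.72 ± 0.71 (adjusted p = 1). Hsd11b2 was the 1 member higher in every flox day 4 library, 3.12% of members against 6.81% of all genes. Of the 9 thick limb members, 5 were lower at day 4 than after PBS in cKO (median −0.13) and 2 in flox (0.73). By segment, averaged over genotypes, 1 of 9 thick limb (median 0.58), 4 of 8 convoluted and connecting tubule (−0.14), 3 of 7 principal cell (0.44), 1 of 4 intercalated cell (0.27) and 1 of 4 shared members (0.093) were lower. Averaged over genotypes, 10 of the 32 members were lower (median 0.25, beside 0.014 over all genes). There edgeR and DESeq2 each called 0 members, edgeR called 0.0216% and DESeq2 9.63% of all genes, and 0 members were lower and 1 higher at an unadjusted p under 0.05 (3.92% and 5.36%). That member was Cldn16 (adjusted p = 0.491), without reads in flox PBS. The test of a genotype difference in this response gave 0 members by edgeR, 1 by DESeq2, Scnn1g, which called 8.54% of all genes, and 2 lower and 0 higher at an unadjusted p under 0.05 (5.81% and 1.93%), Scnn1g and Cldn16, each without reads in some of the 4 groups.

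Before nephritis, few members separated the genotypes. After PBS, 18 of 32 members were lower in cKO than in flox (median −0.11, beside 0.078 over all genes, and −0.47 to 0.34 with single libraries left out). Bsnd, Cldn16 and Slc26a4 were higher in every cKO PBS library, 9.38% of members against 7.27% of all genes, and Aqp2 lower, 3.12% against 2.96%. Cldn16 had 15.8, 31.9 and 1.34 CPM in cKO PBS and no read in flox PBS, at least 292-fold higher at the floor (adjusted p = 0.726). The edgeR test called 0 members and 0% of all genes, 0 members were lower and 1 higher at an unadjusted p under 0.05 (1.4% and 4.62%), and DESeq2 called Cldn16 and 7.17% of all genes. By segment, 2 of 9 thick limb (median 0.83), 6 of 8 convoluted and connecting tubule (−0.32), 4 of 7 principal cell (−1.14), 2 of 4 intercalated cell (0.53) and 4 of 4 shared members (−0.29) were lower in cKO PBS. Sgk1 was at −0.67 ± 0.46 and Atp6v1g3 at −1.79 ± 1.32 (adjusted p = 0.95 and 1).

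At day 4, 20 members were lower in cKO than in flox (median −0.16, beside −0.063 over all genes). The segments differed in sign: 2 of 9 thick limb members were lower (median 0.54), against 6 of 8 convoluted and connecting tubule (−0.33), 5 of 7 principal cell (−1.22), 4 of 4 intercalated cell (−0.38) and 3 of 4 shared members (−0.21). There edgeR called 0 members and 0% of all genes, 2 members were lower and 0 higher at an unadjusted p under 0.05 (5.27% and 2.14%), and DESeq2 called Scnn1g and 6.13% of all genes. At the floor Scnn1g was at least 97.9-fold lower and Avpr2 at least 42.4-fold lower, the second mostly from 1 flox day 4 library at 5.64 CPM (adjusted p = 0.661 and 0.666), and Umod was at 0.54 ± 0.44 (adjusted p = 1). Without cKO day 4 replicate 3, the Umod difference turned to −0.19. Over the 3 stages together 22 members were lower in cKO (median −0.37, beside 0.0099 over all genes). Of the thick limb members, 1 of 9 was lower (median 0.078, or 0.11 with members without reads in a group at the floor), against 7 of 8 convoluted and connecting tubule (−0.85), 7 of 7 principal cell (−1.71), 3 of 4 intercalated cell (−0.95) and 4 of 4 shared members (−0.34). This thick limb median was small, and at day 11, given above, most thick limb members were lower in cKO. Over the stages edgeR called 0 members and 0.0072% of all genes, 6 were lower and 1 higher at an unadjusted p under 0.05 (2.67% and 3.95%), the higher one being Cldn16, and DESeq2 called Kcnj10, Klhl3 and Pvalb and 6.93% of all genes. The smallest unadjusted p among members was that of Avpr2, which had cKO groups without reads (adjusted p = 0.561). Klhl3 was at −2.23 ± 0.93 (adjusted p = 0.631), Scnn1a at −3.27 ± 1.40 (adjusted p = 0.641) and Klk1 at −0.61 ± 0.26 (adjusted p = 0.645).

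Summed over a list, the convoluted and connecting tubule genes were lower in every cKO day 11 library than in every other cKO library. Their sum was 681 to 1288 CPM in cKO PBS, 922 to 2132 CPM in cKO day 4 and 181.6 to 450.5 CPM in cKO day 11 libraries, and 882 to 1587 CPM in flox PBS, 1321 to 1449 CPM in flox day 4 and 257 to 1327 CPM in flox day 11 libraries. The flox day 11 range overlapped both other flox ranges. The thick limb sum averaged 654 ± 466 CPM at cKO day 11, against 1767 ± 397 CPM in cKO PBS, and 874 ± 235 CPM at flox day 11, against 1779 ± 539 CPM in flox PBS (SD, n = 4 and 3 in each pair). Principal and intercalated cell sums were smaller, at 66.3 ± 34.4 and 31.4 ± 15.3 CPM at cKO day 11, against 75.7 ± 46.8 and 58.5 ± 25.2 CPM in cKO PBS. Klk1 was the largest term of the convoluted and connecting tubule sum, and Umod and Slc12a1 were the largest terms of the thick limb sum, so these sums follow their leading genes.

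Proximal tubule RNA was also present, and most of its markers had lower fitted levels at day 11 than after PBS. Its 20 marker genes summed to 7385 to 10859 CPM in cKO PBS, 6638 to 14507 CPM in cKO day 4 and 5065 to 9835 CPM in cKO day 11 libraries, and 8526 to 11074 CPM in flox PBS, 6128 to 15095 CPM in flox day 4 and 2339 to 9685 CPM in flox day 11 libraries. The most abundant was Gpx3, a secreted peroxidase, with a mean of 5013 CPM. At day 11 against PBS, 18 of 20 were lower in cKO (median −0.65) and 19 of 20 in flox (median −0.46), and between the genotypes at day 11, 10 of 20 were lower (median −0.0062). The 4 distal segment lists together were 33.4 ± 12.0% of the proximal sum in cKO PBS, 37.2 ± 10.7% in cKO day 4 and 15.5 ± 7.07% in cKO day 11 mice, against 34.6 ± 12.6% in flox PBS, 35.3 ± 12.0% in flox day 4 and 36.7 ± 11.4% in flox day 11 mice (SD). The cKO day 11 libraries spanned 10.6 to 26.0% and flox day 11 libraries 26.6 to 52.3%, without overlap but by a narrow margin. Within cKO the day 11 range overlapped those of PBS (20.014 to 43.227%) and day 4 (23.64 to 49.746%). This share was described without a test. The highest flox share, 52.3% in replicate 3, went with the lowest proximal sum, 2339 CPM. Gpx3 was the largest term of the proximal sum, so the share depends on that gene and on the leading distal genes. With the proximal tubule level of each library as a covariate, chosen after the data were seen, 24 members were lower at cKO day 11 than at cKO PBS (median −0.81) and 26 lower in cKO than in flox at day 11 (median −0.92), and 0 members passed. Beyond that fit, the part of proximal tubule RNA in the distal values was not tested.

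**Figure D4:**
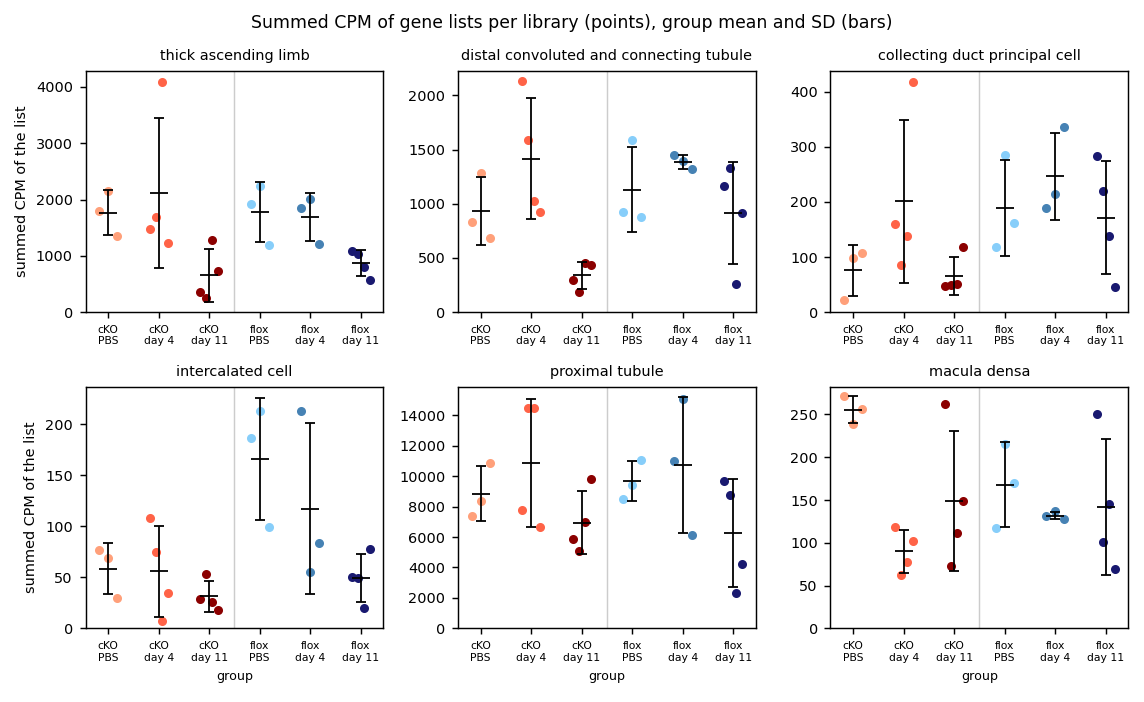
Summed CPM per library of the 4 distal segment lists, the proximal tubule markers and the macula densa markers (points), with the mean and SD of each group, cKO left of flox. The convoluted and connecting tubule sum is at 181.6 to 450.5 CPM in cKO day 11 mice, below every other cKO library, while the proximal tubule sums of cKO and flox day 11 mice overlap.

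The macula densa, the distal tubule plaque that belongs to the glomerulus itself, was followed by 7 markers. They summed to 239 to 271 CPM in cKO PBS, 62.4 to 118 CPM in cKO day 4 and 73.3 to 262 CPM in cKO day 11 libraries, and to 117 to 216 CPM in flox PBS, 128 to 137 CPM in flox day 4 and 69.2 to 251 CPM in flox day 11 libraries. The cKO day 4 sums lay below those of cKO PBS without overlap, and 6 of 7 markers were lower there (median −1.98), while in flox 3 of 7 were lower at day 4 (median 0.71). In each genotype 0 of the 7 were called by edgeR and 1 was lower at an unadjusted p under 0.05 (5.95% of all genes in cKO and 2.38% in flox). Most of the sum was Robo2 (mean 110.3 CPM), which podocytes also express. Nos1, the neuronal nitric oxide synthase that defines these cells, had reads in 20 libraries, and Ptgs2 had reads in 5. At cKO day 11 against PBS 5 of 7 markers were lower (median −0.81), and in flox 3 of 7 (median 0.012). How much of the thick limb RNA came from macula densa cells was not tested.

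Other genes of the same segments were listed as well, 63 with the macula densa markers, of which 60 passed the filter on low counts. Of these, 42 were lower at cKO day 11 than at cKO PBS (median −0.61), 31 at flox day 11 than at flox PBS (−0.16), and 35 in cKO than in flox at day 11 (−0.43). By segment, at cKO day 11 against cKO PBS, 7 of 10 thick limb (median −1.35), 11 of 14 convoluted and connecting tubule (−0.52), 9 of 16 collecting duct (−0.14) and 10 of 13 intercalated cell genes (−0.78) were lower. In cKO against flox at day 11 the numbers were 7 of 10 (−0.42), 8 of 14 (−0.43), 8 of 16 (0.063) and 9 of 13 (−1.17). In cKO against flox at day 11 the other collecting duct genes thus did not share the negative median of the principal cell members. At cKO day 11 against cKO PBS their median was negative but smaller in size (−0.14, against −0.93 for the principal cell members). Of the 60, edgeR called 0 in each of the 3 comparisons. At an unadjusted p under 0.05, 5 were lower and 1 higher at cKO day 11 than in cKO PBS (3.42% and 2.59% of all genes). In flox, 2 were lower and 4 higher at day 11 than after PBS (2.35% and 5.9% of all genes). Between the genotypes at day 11, 3 were lower and 0 higher in cKO than in flox (3.14% and 2.73% of all genes). The most abundant were, in the thick limb, Tmem52b and Ppp1r1a, in the convoluted and connecting tubule S100g, a calcium-binding protein, and Slc8a1, a sodium and calcium exchanger, in the collecting duct the transcription factors Gata3, which is also on the mesangium and juxtaglomerular list, and Tfcp2l1, and among intercalated cells Tmem213 and Car2, a carbonic anhydrase. Of these, S100g averaged 611 CPM and Tmem52b 116 CPM, both with reads in all 21 libraries.

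Across the 21 libraries, log2 CPM of Klk1 and Umod were correlated, and this was the one relation past the threshold among 10 pairs of 4 leading segment genes and Gpx3. Pearson's r was 0.603 (permutation p = 0.004, adjusted p = 0.04) and Spearman's rho 0.605 (permutation p = 0.0044, adjusted p = 0.044), and r was 0.463 without the 2 libraries farthest from the median of Klk1. Within the 6 groups, after removing the group means, r was 0.248. The within-group r was largest for Atp6v1g3 with Klk1 (0.571), and it was −0.437 for Atp6v1g3 with Umod. These within-group values were not tested. The permutations ran over all 21 libraries and did not keep the groups apart, so differences between group means enter the p-values. Umod and Klk1 are neither in the same cell type nor tested for a common source, and for Gpx3 r was 0.333 with Umod and 0.401 with Klk1, neither past the threshold (adjusted p = 0.35 and 0.26).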

How the data were processed

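Poly(A) 3′ tag RNA-seq (QuantSeq FWD) was run on laser-microdissected glomeruli of 21 mice, 1 library per mouse. Per the file headers, the authors deposited for each library a table with an estimated count per gene, which is a raw value, and a TPM value, which was not used. The submitters' processing notes name the tools DRAGEN, fastp, FastQC and Picard and the build mm10. The sources used here do not give versions, the strand setting, or how duplicate reads and reads shared by similar or overlapping genes were treated, so such genes are uncertain. Of the values above 0, 95.2% were whole within 0.005. Symbols were matched by identifier for 35513 of 35598 genes (99.8%). Between 14.9% and 39.5% of reads fell on 1 ribosomal RNA gene, and 0 pairs of libraries held identical values. Counting error alone is covered by the floor, set at 3 counts over a group without reads. Standard errors of the log2 fold changes and the edgeR p-values rest on the same F and include the spread between mice.

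After rounding, genes were kept by filterByExpr (minimum count 10), scaled by TMM and tested by the quasi-likelihood F test of edgeR 4.0.16 (R 4.3.3). A single model of 6 group means held the 21 libraries, with 15 residual degrees of freedom and 13898 genes, and p-values were adjusted over all of these (Benjamini-Hochberg, threshold 0.05). The scaling factors lay between 0.751 and 1.12, and edgeR's common biological coefficient of variation came to 1.66. The 14 comparisons were the stages within and over genotypes, the genotypes at and over stages, and the interactions. Every adjusted p of a gene is from this test, unless DESeq2 is named. The standard error of a log2 fold change is its size divided by the square root of F. Correlations used log2 CPM with a prior count of 2, 100000 permutations (two-sided) and adjustment over 10 pairs.

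Full values per library are given for the leading member of each list and the 8 members with the highest mean CPM, and folds for these and for the 3 smallest p-values of a comparison. Genes of other lists are given as counts, with up to 2 of the most abundant named. Values of Wfdc15b, Bsnd, Klhl3, Slc12a3, Calb1, Pvalb, Scnn1a and Cldn16 in some groups were added after they were seen. The members and lists were chosen with earlier results of these data known. Alternatives were DESeq2 1.42.0 (13040 genes with an adjusted p), 2 other low-count filters, median-ratio scaling, the compared groups alone, a replicate block, removal of the ribosomal gene, and each library left out. Chosen after seeing the data were the removal of both doubted libraries and a proximal tubule covariate. The procedure was tested on simulated data. Promoter windows are RefSeq's, GRCm38.p6. Plots used Python 3.11.15 and matplotlib 3.10.9. Some genes are not reported here.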

Additional observations from a re-analysis of the deposited data

Results flagged for a closer look

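In groups of 4 libraries, 27 of 96 sets of values, over 18 members, had 1 library far from the other 3 (Dixon's test). In 13 of the 27 the other 3 libraries were at 0, where the ratio tested is 1 by construction, so the rate of about 1 in 20 that chance gives for normally distributed values is no measure for this count. Of these, 9 lay in cKO day 4, 10 in cKO day 11 and 8 in flox day 11 libraries. The PBS and flox day 4 groups of 3 were not tested.

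Among thick limb genes at cKO day 4, replicate 3 had 2476 CPM of Umod, against 590.4 to 809 CPM in the other 3, and 551 CPM of Egf, against 197.2 to 236 CPM. Replicate 4 of that group had 55.4 CPM of Cldn19, with 0 in the others. At cKO day 11, replicate 3 had 358 CPM of Egf, against 9.80 to 48.2 CPM, and 17.2 CPM of Cldn16, replicate 1 had 10.3 CPM of Cldn19, and replicate 4 had 45.2 CPM of Kcnj1 and 10.6 CPM of Wfdc15b. At flox day 11, replicate 2 had 18.3 CPM of Cldn16 and 17.1 CPM of Cldn19.

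Among convoluted and connecting tubule genes, cKO day 4 replicate 1 had 20.5 CPM of Pvalb, 21.0 CPM of Trpm6 and 11.0 CPM of Kcnj10, with 0 in the others of its group, and replicate 2 had 267 CPM of Calb1. Flox day 11 replicate 1 had 54.8 CPM of Pvalb and 21.2 CPM of Wnk4.

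Among duct genes, Aqp3 stood apart in cKO day 4 replicate 2 (85.3 CPM) and cKO day 11 replicate 4 (8.29 CPM), and Scnn1b in cKO day 4 replicate 1 (12.4 CPM) and flox day 11 replicate 2 (11.1 CPM). The cKO day 11 libraries with such a value were replicate 1 for Scnn1a (0.673 CPM) and Scnn1g (0.729 CPM), replicate 3 for Slc26a4 (0.224 CPM) and replicate 2 for Foxi1 (6.55 CPM). Flox day 11 replicate 1 stood apart for Scnn1g (5.13 CPM), replicate 4 for Avpr2 (18.0 CPM) and replicate 2 for Foxi1 (3.77 CPM). Replicate 3 of cKO day 4 and of cKO day 11 are the libraries with the fewest genes and the fewest reads. No explanation was tested.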

How the results depend on the processing

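The count of members called, 0 in each of the 14 comparisons by edgeR, stayed at 0 with other size factors, other low-count filters, the compared groups alone, the ribosomal gene removed, the proximal tubule covariate or the replicate block. DESeq2 called 1 (cKO day 4 minus PBS), 5 (cKO day 11 minus PBS), 2 (flox day 4 minus PBS), 2 (flox day 11 minus PBS), 7 (day 11 minus PBS over genotypes), 10 (cKO day 11 minus day 4), 1, 1, 6 and 3 (cKO minus flox after PBS, at day 4, at day 11 and over stages), and 1 and 3 (interactions at day 4 and day 11). Of these 42 calls, 27 had a compared group without reads. Without the libraries of fewest genes and fewest reads, 2 members were called in cKO day 11 minus PBS and 2 over genotypes. With single libraries left out, the count ran from 0 to 2 in those 2 comparisons, from 0 to 1 in cKO day 11 minus day 4 and in cKO minus flox at day 11, and was 0 in the others. These calls were Slc12a1 and Egf without cKO day 11 replicate 3 (Egf in cKO day 11 minus day 4 at −3.49, adjusted p = 0.027) and Klk1 without flox day 11 replicate 3. The shares of all genes called in the fits with libraries left out are not given here, and the cause was not tested.

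The values gave no sign that the replicate numbers pair the mice, which does not exclude such a pairing. Same-numbered libraries of different groups had a median correlation of −0.0013 over 48 pairs (−0.0511 to 0.03, 0 above 0.1), and differently numbered ones −0.0014 over 135 pairs. With the number as a block, 0 members were called, and 3 differences that had not passed the test changed sign, Sgk1 in flox day 11 minus PBS (0.045), Atp6v1g3 in cKO day 11 minus day 4 (0.10) and Atp6v1g3 in cKO minus flox at day 11 (0.45).

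Other reversals were also of differences that had not passed the test. With the proximal tubule covariate, Fxyd2 was at 0.14 in cKO day 11 minus PBS and 0.34 over genotypes, Klk1 at 0.00677 in flox day 11 minus PBS, and Sgk1 at −0.0549 in day 11 minus PBS over genotypes and −0.16 in cKO day 11 minus day 4. Without both doubted libraries, Sgk1 was at −0.22 in cKO day 11 minus day 4 and Umod at −0.19 in cKO minus flox at day 4. With single libraries left out, cKO day 11 minus PBS ran from −0.79 to 0.14 for Fxyd2, and cKO day 11 minus day 4 from −0.11 to 0.25 for Sgk1. In flox day 11 minus PBS, Klk1 ran from −0.50 to 0.16, Fxyd2 from −0.27 to 0.28, Sgk1 from −0.40 to 0.85, Aqp2 from −1.13 to 0.22 and Klhl3 from −0.47 to 0.41, and over genotypes Fxyd2 from −0.36 to 0.12. In cKO minus flox, Sgk1 after PBS ran from −1.03 to 0.21 and Umod at day 4 from −0.19 to 0.84, and at day 11 Egf ran from −2.28 to 0.12, Sgk1 from −0.36 to 0.025, Aqp2 from −1.63 to 0.17 and Atp6v1g3 from −0.85 to 0.068.

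The correlation of Klk1 with Umod ran from 0.459 to 0.718. Those of Atp6v1g3 ran from −0.352 to 0.346 with Umod, 0.194 to 0.601 with Klk1 and −0.151 to 0.0480 with Aqp2, and those of Gpx3 from −0.0492 to 0.565 with Atp6v1g3 and from −0.0480 to 0.408 with Aqp2. Of 103 fold changes of named members, 61 moved by over 1.5 times when some single library was left out. Of the 11 duct members, 8 had reads in 12 to 20 libraries and 3 in 6 to 10, and a gene at 0 in a library was not detected at that depth, which does not show that it is absent.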

Other observations

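Genes of the mesangium and of the renin-producing juxtaglomerular cells, which lie beside the macula densa, had higher sums in cKO mice at day 11 than after PBS. Their 10 markers, led by Ren1 (mean 1696 CPM) and Serpine2, summed to 2972 to 5159 CPM in cKO day 11 libraries, against 2533 to 2839.5 CPM in cKO PBS, without overlap. In flox the sums were 2529.6 to 6660.1 CPM at day 11 and 3113 to 4229.5 CPM after PBS, and these overlapped. At cKO day 11, 6 of the 10 had a higher fitted level than in cKO PBS (median 0.33). Of these, 3 were at an unadjusted p under 0.05 (2.59% of all genes), and edgeR called 0 (0.0504% of all genes). In flox, 7 of the 10 were higher at day 11 than after PBS (median 0.57), 1 of them at an unadjusted p under 0.05 (5.9% of all genes), and edgeR called 0. Averaged over genotypes 7 were higher (median 0.41), and edgeR called 1 of them, against 0.122% of all genes.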
